A study of Mus musculus with 6 samples.

Results

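Genes of metal binding and antioxidant defence, 10 of the 31053 genes in the deposited tables, were followed through the cell types of the mouse retina in oxygen-induced retinopathy (OIR). They were taken by symbol: the metallothioneins Mt1, Mt2 and Mt3, the haem and quinone enzymes Hmox1 and Nqo1, the glutathione supply genes Slc7a11 and Gclm, and the thioredoxin and peroxiredoxin genes Txnrd1, Srxn1 and Prdx4. All 10 had UMIs (unique molecular identifiers, each standing for 1 captured RNA molecule) in the retina. OIR pups were kept in 75% oxygen between P7 and P12 and afterwards in room air for 5 days, which leaves the inner retina short of vessels and hypoxic, whereas control (Ctrl) pups stayed in room air. Retinas of both groups were taken at P17, each group had 3 samples, and each sample pooled the retinas of 2 mice, so values of single mice cannot be told apart. The labels call the material retinal endothelial cells, but the dissociated cells were of the whole retina: 192 of the 38569 cells kept carried the endothelial markers, Cldn5 among them. No genotype or strain is given in the labels.

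Metallothioneins are small cysteine-rich proteins that bind zinc and copper and scavenge radicals. Mt1 and Mt2 are switched on by the zinc-sensing factor MTF1, which binds metal response elements (MREs), and also by glucocorticoids, while Mt3 is the form best known from the nervous system. Most of the other 7 genes are known targets of NRF2, a factor held back by KEAP1 until oxidants or electrophiles release it, which binds antioxidant response elements (AREs). Hmox1 breaks down haem, Nqo1 reduces quinones, Slc7a11 carries cystine into the cell in exchange for glutamate, Gclm is the modifier subunit of the enzyme that starts glutathione synthesis, Txnrd1 reduces thioredoxin, Srxn1 repairs over-oxidised peroxiredoxins, and Prdx4 is the peroxiredoxin of the endoplasmic reticulum. Müller glia, the radial glia of the retina, are known as its main store of glutathione.

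The 6 samples held between 15788524 and 42606878 UMIs and 47631 barcodes, of which 19028 OIR and 19541 Ctrl cells were kept, and the median cell of a sample had between 1449.5 and 4850 UMIs. Cells fell into 23 clusters, of which 20 were named from marker genes, and 739 cells stayed unnamed; every name is given as "-like" because it rests on these markers alone. Libraries shared 9 to 34 barcodes pairwise. The mice of Ctrl 2 and Ctrl 3 expressed Xist at 1798 and 1998 CPM (UMI counts scaled to 1e6 per sum) and almost no Y-linked RNA, while the other 4 samples expressed Y-linked genes at 213 to 262 CPM, so sex is unbalanced between the groups. A fit without Ctrl 1, or of replicates 2 and 3 alone, sets OIR pools against controls of the other sex. Group and sex cannot be told apart there. In a fit with sex as a term, Ctrl 2 and Ctrl 3 set the sex effect. The group effect then sets the OIR pools against Ctrl 1 alone. Raw UMIs were summed per sample and cell type, which gives 1 value per pool of mice, and p-values measure the spread between these pools. A call needed an adjusted p below 0.05 in edgeR's quasi-likelihood test and a log2 fold change beyond 0.25 either way. Tests were made in the 8 types of which each sample gave 10 cells or more; VEC-like (endothelial), VSMC-like (smooth muscle and pericyte) and astrocyte-like cells had too few and are described only. UMIs were read from RNA 3′ ends and do not scale with gene length, so a CPM is set beside the CPM of the same gene in other cells. All 10 members passed a filter on low counts in Müller glia-like cells, 8 in rod-like, 7 each in cone-like, rod bipolar-like and cone bipolar-like, 5 in RPE-like, 3 in microglia-like and 2 in amacrine-like cells; for a member below the filter the adjusted p is the one it would get beside the genes tested.

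Mt3, Mt2 and Mt1 lie side by side on the plus strand of chromosome 8, with Mt4, in 43131 bases (chr8:94137197-94180327, GRCm38, GENCODE vM21): Mt3 spans chr8:94152607-94154146, Mt2 chr8:94172664-94173568 and Mt1 chr8:94179082-94180327. Prdx4 lies on the minus strand of the X chromosome at chrX:155323918-155340754. RefSeq, used for the promoters below, sets its start inside this span, so the promoter window lies within the gene as GENCODE gives it. The promoters of the 3 metallothioneins, of which Mt3 was called in 1 cell type and Mt1 and Mt2 in none, and of Prdx4, the member called most often, are printed from RefSeq (GRCm38.p6), from 250 bases before to 50 bases after the start, 5′ to 3′ on the strand of the gene. Capitals mark the MRE core, TGCACNC or TGCGCNC on either strand, with overlapping matches counted. They come from chr8:94178839-94179138 (Mt1), chr8:94172368-94172667 (Mt2), chr8:94152357-94152656 (Mt3) and chrX:155338411-155338710 (Prdx4).
Mt1: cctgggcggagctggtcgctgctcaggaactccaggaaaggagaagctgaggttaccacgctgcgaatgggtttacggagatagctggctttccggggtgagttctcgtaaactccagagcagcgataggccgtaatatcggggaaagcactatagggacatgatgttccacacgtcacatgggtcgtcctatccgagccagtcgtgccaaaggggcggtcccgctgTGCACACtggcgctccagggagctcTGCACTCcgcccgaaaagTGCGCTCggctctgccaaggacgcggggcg
Mt2: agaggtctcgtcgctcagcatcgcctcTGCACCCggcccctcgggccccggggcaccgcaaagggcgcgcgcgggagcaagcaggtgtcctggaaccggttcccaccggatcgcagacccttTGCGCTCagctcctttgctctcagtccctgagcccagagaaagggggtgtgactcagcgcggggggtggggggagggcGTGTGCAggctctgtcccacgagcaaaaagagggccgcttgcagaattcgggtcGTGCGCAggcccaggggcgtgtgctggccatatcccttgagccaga
Mt3: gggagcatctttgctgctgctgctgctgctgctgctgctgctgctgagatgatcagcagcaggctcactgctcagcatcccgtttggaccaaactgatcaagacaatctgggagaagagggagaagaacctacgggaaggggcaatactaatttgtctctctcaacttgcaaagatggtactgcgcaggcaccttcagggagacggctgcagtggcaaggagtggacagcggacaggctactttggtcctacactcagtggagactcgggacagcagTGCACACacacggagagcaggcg
Prdx4: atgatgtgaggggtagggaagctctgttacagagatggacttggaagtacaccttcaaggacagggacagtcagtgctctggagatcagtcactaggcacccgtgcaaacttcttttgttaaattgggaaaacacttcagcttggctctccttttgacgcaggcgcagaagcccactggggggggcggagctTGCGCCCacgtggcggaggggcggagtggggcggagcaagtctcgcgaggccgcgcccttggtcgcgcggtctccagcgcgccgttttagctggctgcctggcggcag
The window of Mt2 held 4 of these cores, that of Mt1 held 3, and those of Mt3 and Prdx4 held 1 each. Of all 32851 promoter windows, 25.7% held at least 1 core, 1.97% at least 3 and 0.517% at least 4. The ARE core, TGACNNNGC on either strand, was found in 12.4% of all windows, and among the members once each in the windows of Mt2, Srxn1, Gclm and 1 of the 3 starts of Txnrd1, but not in those of Mt1, Mt3, Prdx4, Nqo1 or Slc7a11. RefSeq windows were found for 9 of the 10 members, all but Hmox1. A match is a run of letters and not a bound site.

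Each gene had its own map of cell types. Mt1 was highest in RPE-like cells (retinal pigment epithelium), at 7113 ± 2168 CPM (SD, n = 6 samples), then in astrocyte-like cells at 5501 ± 8786, Müller glia-like cells at 2779 ± 1009 and rod bipolar-like cells at 1680 ± 732. Neighbours in this order overlapped over samples. Cone bipolar-like cells had 622 ± 395 CPM of Mt1, microglia-like cells 546 ± 198, amacrine-like cells 290 ± 104, and VSMC-like, rod-like, cone-like and VEC-like cells between 118 and 21.8 on average. The lowest microglia-like sample, at 411 CPM, lay above the highest amacrine-like one, at 406 CPM, which was the only gap in the order. The large SD in astrocyte-like cells came from OIR 2, where 11 cells gave 23279 CPM, while the other 5 samples lay between 980 and 4170.

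Mt2 was found in the same places, at 975 ± 1474 CPM in astrocyte-like, 970 ± 256 in RPE-like, 297 ± 163 in Müller glia-like and 259 ± 90.0 in rod bipolar-like cells. Mt3 was led by RPE-like (999 ± 502 CPM), astrocyte-like (858 ± 421) and Müller glia-like cells (351 ± 121), and the lowest Müller glia-like sample (204 CPM) lay above the highest cone bipolar-like one (188 CPM). Among bipolar cells the means of the metallothioneins were ordered differently. Cone bipolar-like cells had 118 ± 47.7 CPM of Mt3 against 74.3 ± 21.1 in rod bipolar-like cells, with overlapping samples. Mt1 was lower on average in the cone bipolar-like cells. These were a sum of several clusters: clusters 8 and 9 averaged 232 and 133 CPM of Mt3, and the others 18.4 to 65.4. Mt1 averaged 217 to 1358 CPM over these clusters. The mix of clusters in each sample, and its part in the cone bipolar-like results here and below, was not tested. In rod-like and cone-like cells Mt1 stood at 64.3 ± 37.6 and 56.8 ± 33.6 CPM. That was 1.11% to 3.37% of the Müller glia-like level of the same sample in rod-like cells and 0.958% to 2.77% in cone-like cells, where the summed Müller glia markers stood at 0.701% to 1.33% and 0.886% to 1.90%. How much of the photoreceptor signal was carried over from other cells was not tested. Rod-like cells were not uniform: cluster 6 (1764 cells) averaged 242 CPM of Mt1 and 43.4 of Mt3. The other rod-like clusters averaged 38.0 to 57.2 CPM of Mt1 and 5.63 to 8.37 of Mt3. The part of cluster 6 in the rod-like values was not tested. Mt1 in rod bipolar-like cells, at 33.9% to 91.8% of the Müller glia-like level, was far above the marker share of 0.320% to 1.15%.

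Hmox1 was highest in microglia-like cells, at 135 ± 94.0 CPM, against 24.4 ± 26.1 in astrocyte-like, 6.33 ± 6.43 in Müller glia-like and at most 3.17 on average in the neurons. Nqo1 was highest in RPE-like cells, at 173 ± 78.3 CPM, where the lowest sample (74.3 CPM) lay above the highest of every other type (64.7 CPM, astrocyte-like); it stood at 12.3 ± 4.52 in Müller glia-like cells and had no UMI in rod bipolar-like or microglia-like cells, which allows up to 0.551 to 3.05 CPM a sample in the first and 3.90 to 21 CPM in the second (3 counts, counting error only). Slc7a11 was found in astrocyte-like (48.4 ± 52.1 CPM) and Müller glia-like cells (21.3 ± 9.12 CPM), and averaged at most 1.93 CPM in every other type. Gclm and Txnrd1 were found in every named type. Gclm averaged between 127 and 150 CPM in VEC-like, astrocyte-like, Müller glia-like and RPE-like cells and between 27.4 and 67.7 in the rest. Txnrd1 averaged between 17.3 (cone-like) and 54.2 CPM (RPE-like), with every neighbour in the order overlapping. Srxn1 was highest in amacrine-like cells, at 32.4 ± 11.9 CPM, and stood at 10.8 ± 4.43 in Müller glia-like cells. Prdx4 averaged 193 ± 234 CPM in VEC-like, 160 ± 43.7 in astrocyte-like, 122 ± 77.0 in VSMC-like and 115 ± 32.5 in Müller glia-like cells, all overlapping. The VEC-like mean rested on OIR 2, where 5 UMIs in 2 cells gave 590 CPM, and over samples with at least 10 cells it was 184 ± 155 against 195 ± 26.7 in astrocyte-like cells (n = 3 each). Prdx4 was lowest in rod-like and cone-like cells, at 14.3 ± 6.81 and 14.2 ± 5.21.

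**Figure D1:**
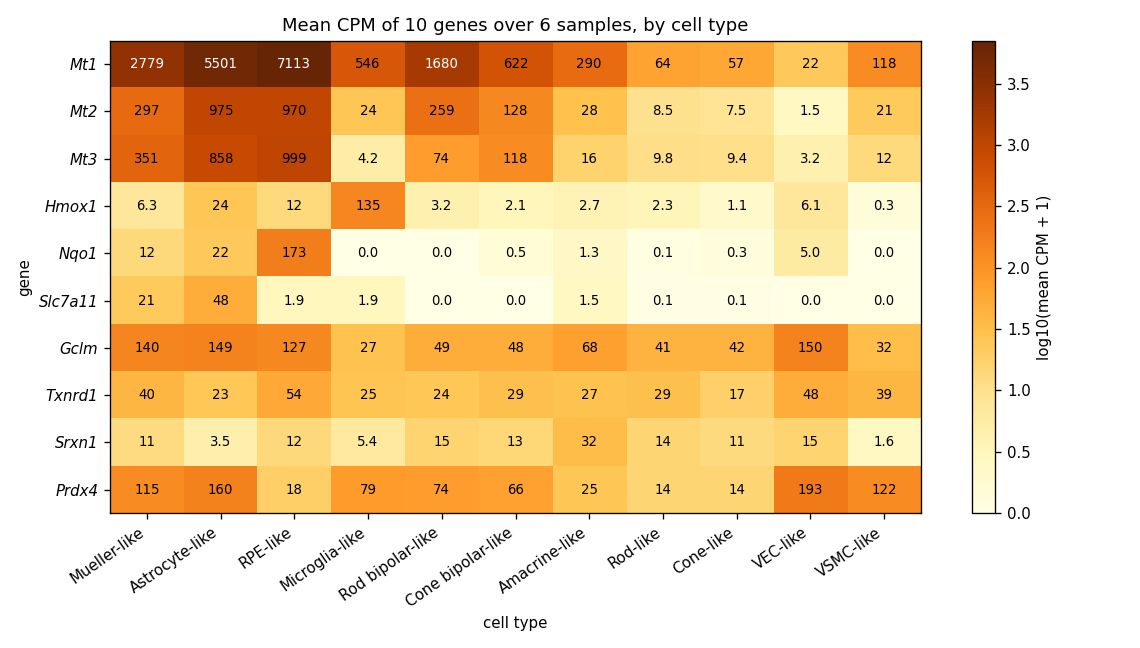
Mean CPM of each gene (rows) in each named cell type (columns) over the 6 samples, printed in the cell and coloured by log10(mean CPM + 1). Mt1, Mt2 and Mt3 are highest in RPE-like, astrocyte-like and Müller glia-like cells, Hmox1 in microglia-like cells at 135, Nqo1 in RPE-like cells at 173, and Slc7a11 is above 1.93 only in astrocyte-like and Müller glia-like cells.

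Mt3 was lower in OIR than in control Müller glia-like cells. It stood at 204, 286 and 255 CPM in OIR 1, 2 and 3 and at 391, 476 and 495 CPM in Ctrl 1, 2 and 3. Every OIR sample lay below every control sample. The mean was 249 ± 41.4 CPM in OIR and 454 ± 55.4 in controls (SD, n = 3 each), a log2 fold change of −0.94 ± 0.15 (SE), or 1.92-fold lower, with an adjusted p of 0.0137 (edgeR). Mt3 and Prdx4 were the 2 members called in Müller glia-like cells, where 2.78% of the 11627 genes tested were called. Müller glia-like cells made up 2 clusters, a UMI-rich one (cluster 3), with more of the cells in OIR 1 and the 3 controls, and a UMI-poor one (cluster 7), with more in OIR 2 and OIR 3. Mt3 was lower in both, by −0.99 in the first (adjusted p = 0.0173) and by −0.91 in the second (adjusted p = 0.00355). The call was lost without any of 4 libraries: the adjusted p was 0.0620 without OIR 1, 0.0624 without OIR 3, 0.0642 without Ctrl 2 and 0.0555 without Ctrl 3, with log2 fold changes between −1.04 and −0.84 over the 6 such fits. The summed Müller glia markers overlapped between the groups in these cells (22856 to 28455 CPM in OIR, 27316 to 35734 in Ctrl). Summed markers of other types did not: RPE markers (9 of 10 seen) stood at 547 to 636 CPM in OIR and 424 to 462 in Ctrl, endothelial markers (9 of 9) at 1044 to 1241 and 891 to 1012, astrocyte markers (6 of 6) at 126 to 146 and 93.6 to 116, and ganglion cell markers (8 of 8) at 23.9 to 33.2 and 37.7 to 46.2. Their part in the results on Müller glia-like cells was not tested.

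In other types Mt3 was not called. In cone bipolar-like cells it stood at 90.5, 79.3 and 85.5 CPM in OIR and at 93.4, 188 and 169 in controls. The groups did not overlap, though Ctrl 1 was close to the OIR samples, and the log2 fold change was −0.80 ± 0.21 (adjusted p = 0.116). Without Ctrl 1, where group and sex cannot be told apart, it was −1.08 (adjusted p = 0.000322). With sex as a term, where Ctrl 1 is the only control behind the group effect, it was −0.20. In rod-like cells Mt3 stood at 6.48, 8.06 and 8.48 CPM in OIR and 13.5, 13.3 and 8.81 in controls, again without overlap, with a log2 fold change of −0.78 ± 0.21 (adjusted p = 0.0928). Mt3 in rod-like cells was 1.78% to 3.45% of the Müller glia-like level, beside 0.701% to 1.33% for the markers, and how much was carried over from Müller glia, where Mt3 was also lower, was not tested. In rod bipolar-like cells Mt3 stood at 55.8, 67.5 and 58.4 CPM in OIR and 63.7, 108 and 92.5 in controls, which overlapped through Ctrl 1 (log2 fold change −0.54 ± 0.18, adjusted p = 0.154). Without Ctrl 1, where group and sex cannot be told apart, it was called (−0.76, adjusted p = 0.0140). Values were also lower on average in cone-like (−0.81 ± 0.34) and RPE-like cells (−0.80 ± 0.35), with overlapping samples and adjusted p of 0.362 and 0.883. In amacrine-like cells Mt3 was below the filter on low counts. It stood there at 7.16, 17.1 and 0 CPM in OIR and 24.3, 20.6 and 26.8 in controls. These groups did not overlap, on 0 to 2 UMIs in an OIR sample and 3 to 30 in a control (−1.70 ± 0.78, adjusted p = 0.706).

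Mt1 and Mt2, the inducible forms, were called in no type. In Müller glia-like cells Mt1 stood at 3136, 4264 and 1838 CPM in OIR and 3501, 2085 and 1847 in controls. The groups overlapped fully, OIR 3 being the lowest of the 6 and Ctrl 1 the second highest, and the log2 fold change was 0.25 ± 0.32 (adjusted p = 0.781). Without OIR 2 it was −0.02. Mt2 stood at 410, 545 and 174 CPM in OIR and 347, 169 and 141 in controls, with a log2 fold change of 0.70 ± 0.40 (adjusted p = 0.452). Mt3 made up 7.45% ± 3.31 of the UMIs of the 3 metallothioneins in OIR and 15.5% ± 5.6 in control Müller glia-like cells, and these shares overlapped (exact two-sided permutation test, p = 0.2, where 0.1 is the smallest that 3 against 3 samples allow).

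In rod bipolar-like cells Mt1 stood at 2880, 2202 and 905 CPM in OIR and 1186, 1559 and 1348 in controls, so that the OIR samples held both the highest and the lowest value (log2 fold change 0.53 ± 0.30, adjusted p = 0.454). Mt2 stood there at 376, 363 and 176 CPM in OIR and 177, 256 and 208 in controls (0.50 ± 0.23, adjusted p = 0.341), and without OIR 3 it was called (0.77, adjusted p = 0.0375). In cone bipolar-like cells Mt1 stood at 1227, 988 and 378 CPM in OIR and 549, 322 and 269 in controls, and Mt2 at 267, 192 and 76.8 CPM in OIR and 104, 72.0 and 54.3 in controls. Each number was higher in OIR than in the control of the same number, but OIR 3 lay below Ctrl 1 for both genes. The log2 fold changes were 1.12 ± 0.35 (adjusted p = 0.195) and 1.13 ± 0.35 (adjusted p = 0.187). Without Ctrl 1, where group and sex cannot be told apart, they were 1.53 (adjusted p = 0.00922) and 1.51 (adjusted p = 0.0218). Without OIR 3 they were 1.49 (adjusted p = 0.0303) and 1.5 (adjusted p = 0.0214). With sex as a term, where Ctrl 1 is the only control behind the group effect, they were 0.59 and 0.75.

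Samples with the same number deviated together in cone bipolar-like and rod-like cells. The labels tie no number to a litter or day, so this pairing was read from the same counts. Pools numbered 2 and 3 also differed in sex between the groups. The number went with depth too: the median cell had 3958, 2354 and 2009.5 UMIs in OIR 1, 2 and 3. In Ctrl 1, 2 and 3 it had 4850, 1949 and 1449.5. Number 1 gave the most cone bipolar-like cells in each group (946 in OIR 1 and 1591 in Ctrl 1). What the block stands for was not tested. As the block was chosen from these counts, its p-values are no separate support. With the replicate number as a block, 4 of the 10 members were called in cone bipolar-like cells, where 4.97% of genes were called: Mt1 (1.06, adjusted p = 4.77e-05), Mt2 (1.14, adjusted p = 4.01e-05), Mt3 (−0.72, adjusted p = 0.0129) and Prdx4 (0.71, adjusted p = 0.00681). Without the block none was called there, where 0.868% of genes were called, though DESeq2 called Mt3 (adjusted p = 0.0425). Without the block all 4 had an unadjusted p under 0.05 (edgeR), as had 1227 of the 10258 genes tested. Shared bipolar markers stood at 5513 to 5846 CPM in OIR and 6830 to 7201 in control cone bipolar-like cells. Erythroid markers (5 of 5) stood there at 2.56 to 11 and 18 to 77, and lens markers at 214 in OIR 2 and at most 7.17 elsewhere. Endothelial markers (9 of 9) stood at 33.8 to 59.1 CPM in OIR and 64.4 to 89.6 in controls. Ganglion cell markers (7 of 8) stood at 7.92 to 9.73 and 16.1 to 24.0. The part of all these markers, and of the mix of cone bipolar-like clusters in each sample, was not tested. In rod-like cells 3 members were called with the block, where 11% of genes were called: Prdx4, Mt3 (−0.75, adjusted p = 0.0426) and Txnrd1 (0.59, adjusted p = 0.0376).

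Among photoreceptors, Mt2 in cone-like cells stood at 9.70, 21.1 and 7.42 CPM in OIR and 5.89, 1.17 and 0 in controls, without overlap (log2 fold change 1.61 ± 0.49, adjusted p = 0.124), from 2 UMIs in Ctrl 2 and none in Ctrl 3, which allows up to 4.83 CPM. Without Ctrl 1, where group and sex cannot be told apart, the controls left held only these 2 UMIs. The call in that fit (3.74, edgeR adjusted p = 0.00372) rests on these controls near the floor and is no support. In cone-like cells the summed Müller glia markers (10 of 10 seen) stood at 318 to 510 CPM in OIR and 294 to 317 in controls, blood leukocyte markers (2 of 7) at 22.9 to 33.2 and 8.77 to 21.2, and rod bipolar markers (6 of 6) at 81.8 to 121 and 154 to 195, without overlap, and their part was not tested. No member was called in cone-like cells by edgeR, where 1.28% of genes were called, or by DESeq2. An unadjusted p under 0.05 (edgeR) was reached by 5 of the 7 members tested, and by 1058 of the 9386 genes tested. In rod-like cells Mt1 stood at 82.9, 87.6 and 42.2 CPM in OIR and 118, 34.4 and 20.5 in controls (0.17 ± 0.56, adjusted p = 0.909), and its direction turned without Ctrl 2 (−0.10) or Ctrl 3 (−0.24). Mt2 in rod-like cells stood at 17.1, 12.6 and 4.40 CPM in OIR and 13.1, 2.37 and 1.55 in controls (0.98 ± 0.75, adjusted p = 0.544). It was called without Ctrl 1 (2.35, adjusted p = 0.0365), where group and sex cannot be told apart. With sex as a term, where Ctrl 1 is the only control behind the group effect, it turned direction (−0.37). Ctrl 1 was the highest control for Mt1 and Mt2 in rod-like, cone-like, cone bipolar-like and Müller glia-like cells. In RPE-like cells, where the metallothioneins were highest, Mt1 stood at 5641, 9835 and 5988 CPM in OIR and 4640, 9664 and 6910 in controls (−0.03 ± 0.37, adjusted p = 0.998).

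**Figure D2:**
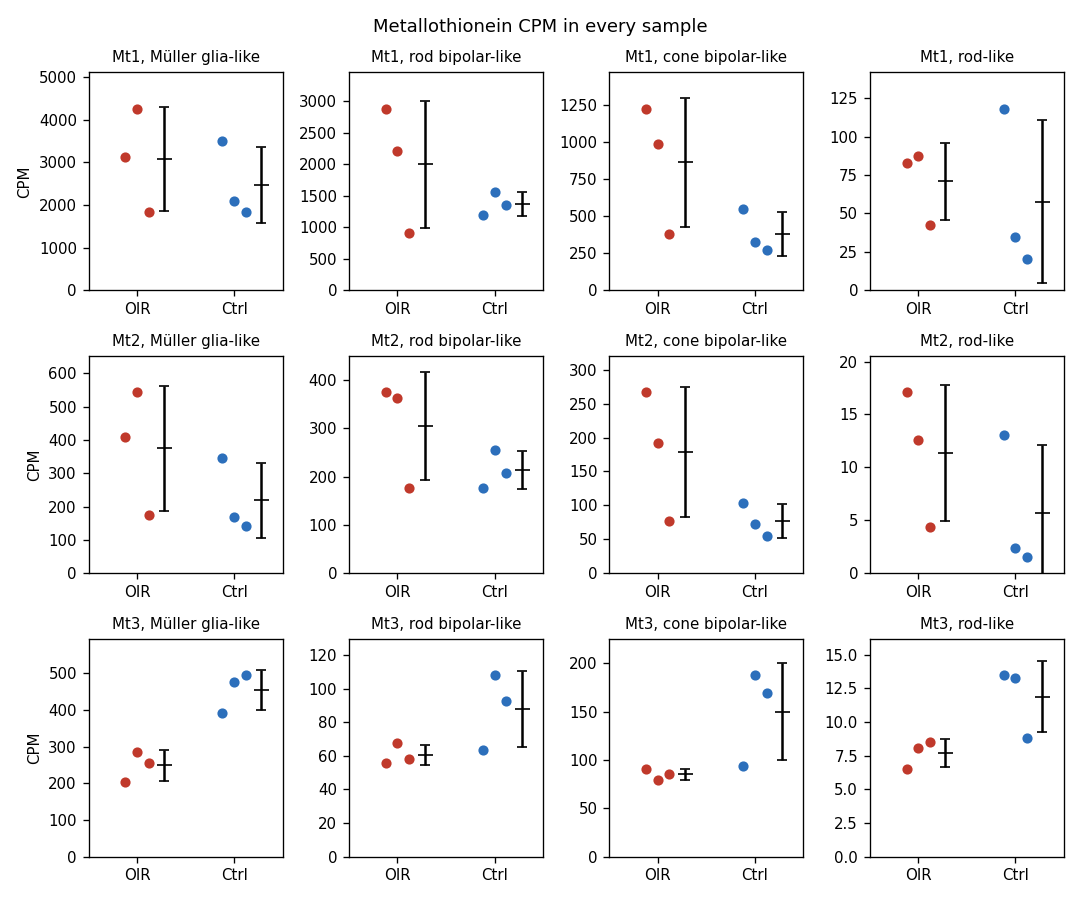
CPM of Mt1, Mt2 and Mt3 (rows) in 4 cell types (columns), with 1 point per sample in the order of its replicate number and the mean ± SD of 3 samples beside them (bars stop at 0). Mt3 in Müller glia-like cells lies between 204 and 286 CPM in OIR and between 391 and 495 in controls, whereas Mt1 there overlaps between the groups.

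Prdx4 was higher in OIR in 3 cell types. In rod bipolar-like cells it stood at 115, 94.0 and 98.4 CPM in OIR and 40.7, 42.8 and 51.9 in controls. All OIR samples lay far above all controls, at 102 ± 10.9 against 45.1 ± 5.92 CPM, a log2 fold change of 1.19 ± 0.17 or 2.28-fold (adjusted p = 0.0015, edgeR). It was the only member called there, where 2.46% of genes were called, and it was called in all 15 alternatives tried. In rod-like cells it stood at 20.4, 22.1 and 18.6 CPM in OIR and 9.60, 7.71 and 7.25 in controls. The groups again lay apart, at 20.4 ± 1.77 against 8.19 ± 1.24 CPM, with a log2 fold change of 1.17 ± 0.16 or 2.25-fold (adjusted p = 0.0122). It was the only member called in rod-like cells, where 2.61% of genes were called. The adjusted p was 0.0829 without OIR 2, 0.0891 without Ctrl 2 and 0.0715 without Ctrl 3, with log2 fold changes of at least 1.09. In Müller glia-like cells it stood at 157, 147 and 123 CPM in OIR and 90.8, 77.7 and 94.2 in controls, without overlap, with a log2 fold change of 0.65 ± 0.15 or 1.56-fold (adjusted p = 0.0492). That call was at the threshold and was lost without any of 5 libraries: the adjusted p was 0.161 without OIR 1, 0.110 without OIR 2, 0.0622 without OIR 3, 0.185 without Ctrl 2 and 0.101 without Ctrl 3, with log2 fold changes between 0.53 and 0.76 over all 6 such fits. It was 0.64 in the UMI-rich Müller cluster (adjusted p = 0.0622) and 0.98 in the UMI-poor one (adjusted p = 0.0228).

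Prdx4 lies on the X chromosome and the samples differ in sex, so Ctrl 1, which expressed Y-linked genes as all OIR samples did, is the control of the same sex. Ctrl 1 was the lowest control in rod bipolar-like cells (40.7 CPM) and lay with the other controls in rod-like (9.60 CPM) and Müller glia-like cells (90.8 CPM). With sex as a term the log2 fold change was 0.93 in rod-like and 0.61 in Müller glia-like cells. Neither was called in that fit, while the call held in rod bipolar-like cells. Ctrl 1 is the only control behind the group effect there. Haemoglobin and other erythroid markers moved with the groups in rod-like cells, at 10.3 to 48.4 CPM in OIR and 1507 to 2549 in controls, for 5 of 5 genes with UMIs, while RPE markers (10 of 10) stood at 35.9 to 69.0 and 28.4 to 32.9 CPM and astrocyte markers (6 of 6) at 4.03 to 6.25 and 2.03 to 2.80. The rod markers themselves stood at 52883 to 59711 CPM in OIR and 62187 to 69617 in controls, and the part of these shifts in the result was not tested. In rod bipolar-like cells the erythroid markers stood at 0.679 to 7.98 CPM in OIR and 14 to 42.9 in controls. Fos and Dusp1, immediate early genes that rise in handled tissue, were also lower in OIR rod bipolar-like cells, and their part was not tested. The sum of the 12 immediate early and heat shock genes listed, these 2 among them, overlapped there (428 to 520 CPM in OIR, 445 to 755 in controls).

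In other types Prdx4 was not called. In cone bipolar-like cells it stood at 93.3, 76.5 and 75.8 CPM in OIR and 47.1, 46.3 and 59.3 in controls, without overlap (0.68 ± 0.17, adjusted p = 0.0961). In microglia-like cells it stood at 103, 88.9 and 145 CPM in OIR and 64.6, 21 and 52.7 in controls, also without overlap (1.10 ± 0.35, adjusted p = 0.229), on 3 to 79 UMIs a sample. There 0.324% of genes were called and no member was, by edgeR or DESeq2. All 3 members tested had an unadjusted p under 0.05 (edgeR), as had 322 of the 3393 genes tested. The summed Müller glia markers, Apoe among them, stood at 42081 to 51622 CPM in OIR and 16952 to 20725 in control microglia-like cells, with 9 of 10 genes seen. The OIR values lay above those of OIR Müller glia-like cells (22856 to 28455 CPM). Control values lay below those of control Müller glia-like cells (27316 to 35734 CPM). The part of this sum in microglia-like cells was not tested. Summed immediate early and heat shock genes (12 of 12) stood there at 4705 to 8097 CPM in OIR and 8223 to 9506 in controls, and their part was not tested either. In cone-like cells the values overlapped (16.3, 23.7 and 11.5 CPM against 11.4, 9.36 and 12.9). VEC-like cells came mostly from OIR 1 and Ctrl 1: Prdx4 had 73 UMIs in 23 cells of OIR 1, or 362 CPM (exact 95% Poisson interval 284 to 456), and 91 UMIs in 146 cells of Ctrl 1, or 80.8 CPM (65.0 to 99.2). These intervals cover counting error in 1 library each and no test between conditions was made.

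**Figure D3:**
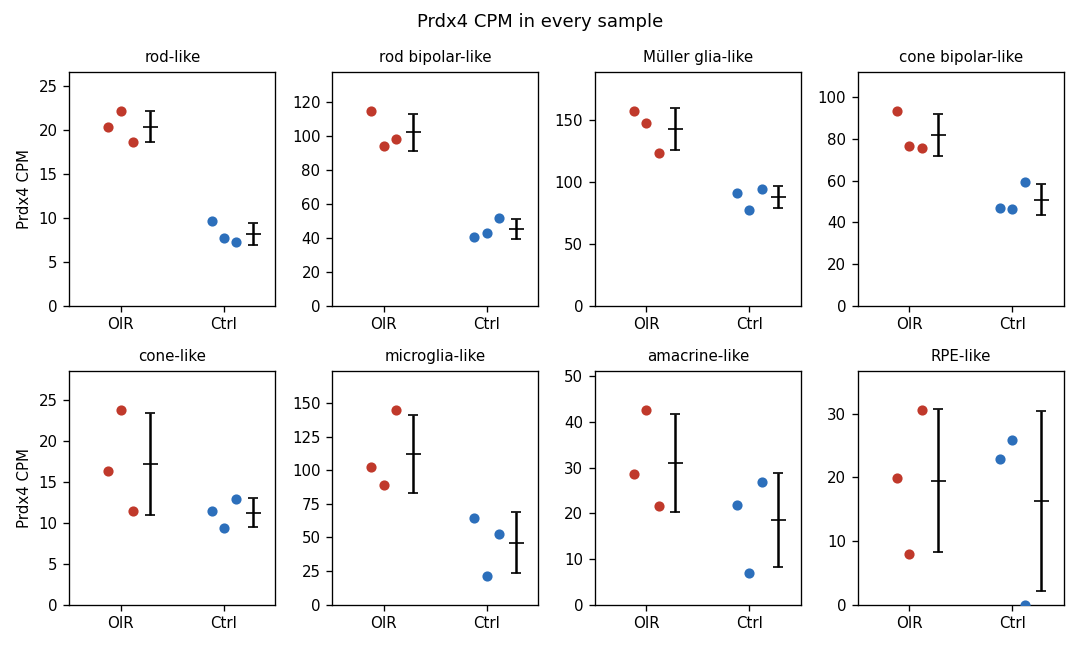
Prdx4 CPM in the 8 tested cell types, with 1 point per sample in the order of its replicate number and the mean ± SD of 3 samples beside them (bars stop at 0). All OIR samples lie above all controls in rod-like, rod bipolar-like, Müller glia-like, cone bipolar-like and microglia-like cells, and the groups overlap in cone-like, amacrine-like and RPE-like cells.

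The haem and quinone enzymes passed the test in no type. Their means were not on 1 side throughout: Hmox1 stood at 0.917 CPM in OIR and 1.22 in control cone-like cells, and Nqo1 at 0.103 and 0.165 in rod-like cells, all below the filter on low counts. Nqo1 in Müller glia-like cells stood at 15.7, 17.8 and 15.1 CPM in OIR and 6.87, 7.84 and 10.5 in controls. The groups did not overlap and lay at 16.2 ± 1.38 against 8.41 ± 1.90 CPM, with a log2 fold change of 0.95 ± 0.22 (adjusted p = 0.0542), just outside the threshold. Hmox1 in Müller glia-like cells stood at 18.9, 6.99 and 3.93 CPM in OIR and 4.46, 1.96 and 1.76 in controls, so that OIR 1 stood apart and OIR 3 lay below Ctrl 1 (1.72 ± 0.60, adjusted p = 0.187). In rod bipolar-like cells, where the filter on low counts removed it, Hmox1 stood at 4.41, 5.77 and 4.75 CPM in OIR and 0.734, 2.33 and 1.02 in controls, without overlap, from 7 to 21 UMIs in an OIR sample and 1 to 4 in a control (2.08 ± 0.53, adjusted p = 0.0575). In microglia-like cells, where Hmox1 was highest, it stood at 165, 311 and 101 CPM in OIR and 104, 69.9 and 58.0 in controls. OIR 3 and Ctrl 1 overlapped narrowly (1.15 ± 0.36, adjusted p = 0.229). The direction turned with cells clustered without integration (−0.45), but the microglia cluster then held 621 cells, against 244 here. That fit is thus of another set of cells. In an unnamed cluster with microglia and leukocyte markers, 1 cell of Ctrl 2 gave 277 of 289 Hmox1 UMIs. All microglia-like cells of Ctrl 2 gave 10. Whether that cell entered the fit without integration was not tested. In rod-like cells Hmox1 stood at 4.05, 2.91 and 2.39 CPM in OIR and 2.40, 0.926 and 1.04 in controls (1.02 ± 0.44, adjusted p = 0.261). Nqo1 in RPE-like cells stood at 179, 313 and 168 CPM in OIR and 137, 164 and 74.3 in controls, without overlap but on 2 to 39 UMIs a sample (0.60 ± 0.39, adjusted p = 0.959). The summed RPE markers (9 of 10 seen) stood there at 70468 to 93153 CPM in OIR and 47589 to 69162 in controls, and their part was not tested. No member was called in RPE-like cells, where 0.0567% of genes were called. Of the members 1 (Mt3) had an unadjusted p under 0.05 (edgeR), as had 96 of the 1765 genes tested.

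The glutathione supply genes did not pass the test in any type. Slc7a11 in Müller glia-like cells stood at 24.1, 18.3 and 13 CPM in OIR and 38.1, 14.5 and 19.9 in controls (−0.48 ± 0.34, adjusted p = 0.571), and without Ctrl 1, the highest sample, the direction turned (0.12). Gclm in Müller glia-like cells stood at 128, 154 and 111 CPM in OIR and 148, 156 and 143 in controls, which overlapped (−0.25 ± 0.14, adjusted p = 0.445). In rod-like, rod bipolar-like and cone bipolar-like cells the log2 fold change of Gclm lay between −0.08 and 0.01.

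Srxn1, which reactivates peroxiredoxins, stood at 17.5, 13.7 and 12.1 CPM in OIR and 7.04, 8.63 and 5.85 in control Müller glia-like cells. The groups did not overlap, at 14.4 ± 2.76 against 7.17 ± 1.39 CPM, with a log2 fold change of 0.96 ± 0.26 (adjusted p = 0.0802). In rod-like cells it stood at 16.6, 17.3 and 17.4 CPM in OIR and 10.9, 12.8 and 10.7 in controls, without overlap (0.42 ± 0.14, adjusted p = 0.155), and in cone-like cells at 14.5, 12.1 and 16.2 CPM against 9.28, 7.02 and 9.66 (0.66 ± 0.29, adjusted p = 0.387). In both bipolar types it overlapped between the groups. Txnrd1 in rod-like cells stood at 33.7, 37.4 and 36.6 CPM in OIR and 29.5, 19.5 and 17.3 in controls, without overlap (0.56 ± 0.19, adjusted p = 0.151). It was called without Ctrl 1 (0.80, adjusted p = 0.00773), where group and sex cannot be told apart. In Müller glia-like cells Txnrd1 stood at 47.7, 45.1 and 43.6 CPM in OIR and 44.3, 31.0 and 25.7 in controls, where OIR 3 fell just below Ctrl 1 (0.33 ± 0.19, adjusted p = 0.462). In amacrine-like cells, where 0.0529% of genes were called, no member was, by edgeR or DESeq2. Of the 2 members tested there, none had an unadjusted p under 0.05 (edgeR). Mt3, which the filter on low counts removed, had an unadjusted p of 0.0467 (edgeR).

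**Figure D4:**
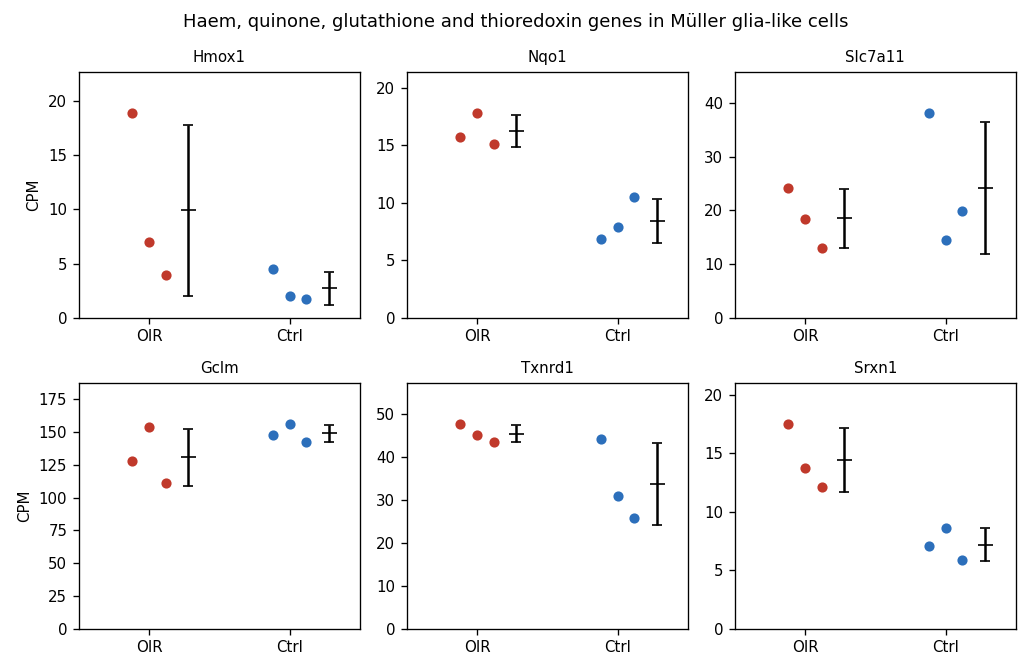
CPM of Hmox1, Nqo1, Slc7a11, Gclm, Txnrd1 and Srxn1 in Müller glia-like cells, with 1 point per sample in the order of its replicate number and the mean ± SD of 3 samples beside them. Nqo1 and Srxn1 do not overlap between the groups, Hmox1 in OIR 1 stands apart at 18.9, and none of these 6 genes was called.

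Whether an effect differed between types was tested as an interaction of cell type and group, Müller glia-like cells against each of the other 7 types. No member was called in any of the 7 pairs, where 1.83% (rod-like), 1.39% (cone-like), 1.46% (rod bipolar-like), 0.821% (cone bipolar-like), 0.517% (amacrine-like), 0.531% (microglia-like) and 0.0599% (RPE-like) of genes were called by edgeR. The limma-voom fits also called no member. As no member was called, a call in 1 type and not in another is not shown to be a difference between them. Of the 70 values, 13 had an unadjusted p under 0.05 (edgeR). The share of all genes at that cut was not counted, so the 13 are not a result about the members. The 70 also include pairs whose other type had no UMI of the member, such as Nqo1 against rod bipolar-like cells. No difference could be estimated there. Without Ctrl 1, Mt1 and Mt2 were called against rod-like cells, where 4.52% of genes were called in that fit, and Mt2 against rod bipolar-like cells (1.11% of genes). Group and sex cannot be told apart in these fits. Against cone-like cells Mt2 was called without OIR 1 (1.33% of genes) and Hmox1 without OIR 3 (1.11% of genes). The lowest adjusted p (edgeR) were those of Hmox1 against cone-like cells (log2 difference of the changes 2.87 ± 0.86, adjusted p = 0.0999), Mt2 against cone-like cells (−1.11 ± 0.35, adjusted p = 0.126) and Mt1 against cone bipolar-like cells (−0.83 ± 0.23, adjusted p = 0.129). The change of Prdx4 in Müller glia-like cells differed from that in rod-like cells by −0.55 ± 0.18 (adjusted p = 0.160) and from that in rod bipolar-like cells by −0.52 ± 0.17 (adjusted p = 0.171). The change of Mt3 differed between Müller glia-like and rod-like cells by −0.21 ± 0.22 (adjusted p = 0.777).

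**Figure D5:**
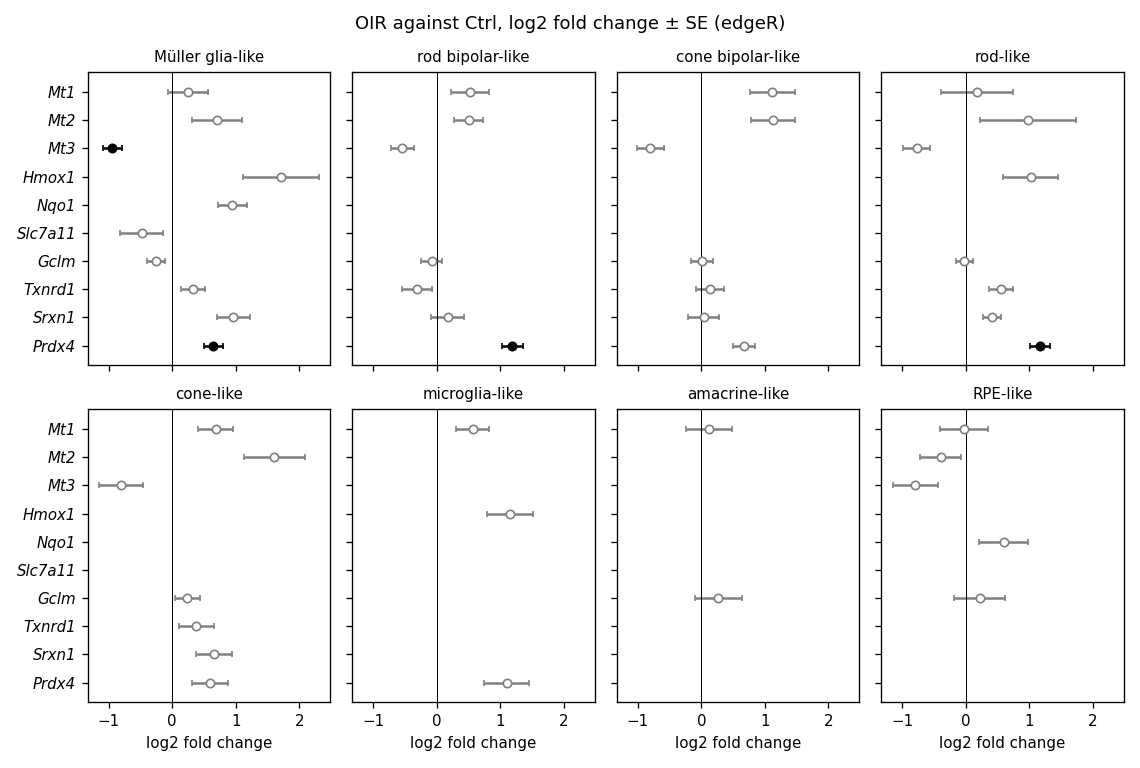
Log2 fold change of OIR against Ctrl with its SE, for members that passed the filter on low counts in each of the 8 tested types; filled points were called. The 4 filled points are Mt3 (−0.94) and Prdx4 (0.65) in Müller glia-like cells and Prdx4 in rod bipolar-like (1.19) and rod-like cells (1.17).

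To read the share of cells with a UMI at equal depth, Müller glia-like cells with at least 1000 UMIs were thinned to 1000 UMIs each (261 to 972 cells a sample). These shares come from the same counts as the CPM. For a gene with few UMIs per cell they follow its level. They cannot tell a change in the share of expressing cells from a change in level per cell. The shares are thus a description and no separate support. Mt3 was seen in 18.7%, 26.3% and 22.4% of such cells in OIR and in 32.2%, 39.5% and 34.9% in controls. Every OIR share lay below every control share, at 22.5% ± 3.77 against 35.5% ± 3.72, with the smallest p an exact permutation test allows here (p = 0.1, two-sided; 0.4 adjusted over 10 genes). Rod-like cells, which should hold little Mt3, showed it in 0.430% to 1.00% of cells at the same depth. Mt1 was seen in 78.4%, 87.0% and 70.4% of OIR and 85.8%, 77.1% and 65.9% of control Müller glia-like cells. Prdx4 was seen in 13.4%, 14.4% and 10.4% of OIR and 8.15%, 7.31% and 11.1% of control Müller glia-like cells, which overlapped, and in 2.75%, 1.98% and 1.77% of OIR and 0.811%, 0.704% and 0.556% of control rod-like cells, which did not (exact p = 0.1). Without thinning, Prdx4 was seen in 57.6% to 61.5% of OIR and 23.7% to 28% of control rod bipolar-like cells, and thinned to 1000 UMIs in 12%, 14.8% and 5.84% against 4.18%, 4.88% and 3.21%. Thinned to 500 UMIs the groups overlapped there, at 6.10%, 2.17% and 5.10% against 2.08%, 3.66% and 1.90%.

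Around these members, 91 other genes in 8 lists of metal handling, NRF2 regulation and targets, glutathione use, peroxide removal, haem and iron handling, the integrated stress response and immediate early genes were read in the same fits. In Müller glia-like cells 82 of them were tested, 3 were higher in OIR and none lower (3.66%, beside 2.78% of all genes), and their median log2 fold change was 0.03, beside −0.01 for all genes. The 3 were Me1, malic enzyme, which makes NADPH, at 43.3, 30.6 and 41.5 CPM in OIR and 16.5, 18 and 12.3 in controls (1.22 ± 0.21, adjusted p = 0.0153); Gsr, glutathione reductase, at 29.8, 26.2 and 29.7 CPM against 14.8, 16.1 and 17 (0.80 ± 0.17, adjusted p = 0.0346); and Ddit3, a transcription factor of the stress response of the endoplasmic reticulum, at 110, 99.3 and 80.2 CPM against 57.3, 58.4 and 56.8 (0.69 ± 0.16, adjusted p = 0.0474). The groups lay apart for all 3. Me1 and Gsr were 2 of the 17 other NRF2 targets tested there, whose median was 0.07, while none of the 9 NRF2 regulators and none of the 8 other metal handling genes passed (medians 0.01 and 0.08).

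In rod-like cells 79 of the 91 were tested and 2 were higher (2.53%, beside 2.61% of all genes, list median 0.09, all genes 0.00): Me1 again, at 115, 115 and 129 CPM against 76.4, 74.4 and 80.1 (0.48 ± 0.10, adjusted p = 0.0453), and Slc3a2, the partner chain of Slc7a11 and of other amino acid carriers, at 290, 333 and 329 CPM against 202, 125 and 160 (0.81 ± 0.16, adjusted p = 0.0411). In rod bipolar-like cells 65 were tested (median −0.10) and 3 were called (4.62%, beside 2.46% of all genes). Sqstm1, an autophagy receptor that also binds KEAP1, was higher, at 131, 185 and 163 CPM against 87.2, 113 and 95.6 (0.66 ± 0.14, adjusted p = 0.0268). Fos was lower there, at 34.2, 17.9 and 31.9 CPM against 163, 124 and 85.4 (−2.18 ± 0.26, adjusted p = 0.000381), and so was Dusp1, at 21.2, 4.61 and 6.11 CPM against 53.0, 36.6 and 24.4 (−1.68 ± 0.42, adjusted p = 0.0486). Both belong to the list of 12 immediate early and heat shock genes, of which 9 were tested.

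In cone bipolar-like cells 70 were tested (median −0.07, all genes −0.01) and 2 were lower (2.86%, beside 0.868% of all genes): Nfe2l1, a relative of NRF2, at 70.8, 83.4 and 69.1 CPM in OIR and 105, 147 and 127 in controls (−0.80 ± 0.15, adjusted p = 0.0288), and Prdx6, at 40.2, 37.2 and 47.1 CPM against 72.2, 67.7 and 63.4 (−0.77 ± 0.16, adjusted p = 0.0419). None of the listed genes was called in cone-like, amacrine-like, microglia-like or RPE-like cells, where 70, 33, 48 and 28 were tested.

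The genes whose log2(CPM + 1) ran most like a member over the 48 sums of 8 types and 6 samples, among genes with a mean of at least 10 CPM, were taken as a description; the sums of 1 sample share a library and its depth. For Mt1 they were Mt2 (Pearson r = 0.94), Nt5dc2 (0.87), Mras (0.86), Rnf13 (0.85) and Vit (0.85). For Hmox1 they were Arpc1b (0.88), Casp8 (0.88), Rassf2 (0.87), Fam46c (0.86) and Gpx1 (0.86), and for Slc7a11 Folh1 (0.87), Cyp2d22 (0.84), Bmp3 (0.84), Prelp (0.83) and Qrfpr (0.82).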

How the data were processed

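Retinal cells of 3 OIR and 3 control samples were profiled with droplet 3′ single-cell RNA-seq. The files that the authors deposited hold raw UMI counts for each barcode, with mm10 as the build per the labels and software 3.1.0 in the matrix headers. No barcode in them had fewer than 500 UMIs, so empty droplets were already gone. Depth was 15788524 to 42606878 UMIs a sample, and intervals and floors (3 counts) cover counting error only. Cells with 500 to 5000 genes and at most 20% mitochondrial counts were kept, integrated and clustered with Seurat 5.3.0 in R 4.3.3 (2000 variable genes, 15 principal components, 20 neighbours, resolution 0.5). Clusters were named from marker lists, no doublets were removed, and raw counts were summed per sample and type. Sums were tested with edgeR 4.0.16 (quasi-likelihood, TMM, filterByExpr, Benjamini-Hochberg over all genes tested), and calls needed an adjusted p below 0.05 with a log2 fold change beyond 0.25 either way. Shares were compared with an exact permutation test (SciPy 1.17.1), and figures were drawn with matplotlib 3.10.9. The tests were first tried on simulated counts. With 200 genes changed 2-fold, edgeR recovered 11% in amacrine-like, 15% in RPE-like, 39.5% in microglia-like and 54.5% to 68.5% in other types. Changes of 4-fold were recovered in 81% to 97% of genes. False calls made up 2.47% to 10.8% of the calls, in part above the 5% aimed at. The interaction was fitted with the sample as a block. Named genes were all 10 members, other listed genes that were called, and the 5 genes most like Mt1, Hmox1 and Slc7a11. Members and lists were chosen with earlier results of these data known. Same-numbered samples were taken as paired where all 3 numbers had deviations from the group means correlated above 0.1: rod-like (r = 0.471, 0.245 and 0.332) and cone bipolar-like cells (0.340, 0.134 and 0.188), a pattern of the data, since the labels tie no number to a litter or day. Alternatives were DESeq2 1.42.0, no filter, other cell filters, doublet removal, clustering without integration (scanpy 1.11.5), a replicate block, sex as a term, limma 3.58.1 (voom) for the interaction and leaving out each sample.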

Additional observations from a re-analysis of the deposited data

Results flagged for a closer look

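Clusters and types outside the tests were read for signal above the controls, over members with at least 30 UMIs in the 6 samples. In 3 values all OIR samples lay above all controls, and every other value read overlapped between the groups. The share of all genes that separate in this way was not counted, so the 3 are a description only. In cluster 13, 374 unnamed cells with markers of both microglia and leukocytes, Mt1 averaged 778.6 CPM in OIR (916, 923 and 496) against 406, 225 and 112 in controls. Prdx4 averaged 75.7 CPM there in OIR (69.9, 77.7 and 79.6) against 38.3, 37.5 and 12.5 in controls, on 54 UMIs in all. In a fit of cluster 13 alone neither was called (edgeR adjusted p of 0.447 for Mt1 and 0.463 for Prdx4). In VSMC-like cells Prdx4 averaged 178.2 CPM in OIR (233, 183 and 119) against 70.3, 17.8 and 112 in controls, on 73 UMIs, from 5, 2 and 6 OIR and 63, 5 and 5 control cells, and this difference was not tested. Groups of 3 were too small to look for single samples far from the rest.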

How the results depend on the processing

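Over 30 pairs of a member and a cell type and 470 alternative values, 402 kept their direction and their side of the threshold, 18 lost the call, 41 gained one and 9 turned direction. The pairs were all members in Müller glia-like cells, tested pairs whose groups did not overlap, and others chosen by name. Most pairs were not called in the main fit and kept their side by staying uncalled. The 402 are thus no measure for all members and types. Prdx4 in rod bipolar-like cells kept its call throughout (1.03 to 1.28 leaving out 1 sample); leaving out 1 sample gave 1.09 to 1.28 for Prdx4 in rod-like, 0.53 to 0.76 for Prdx4 and −1.04 to −0.84 for Mt3 in Müller glia-like cells. Prdx4 in Müller glia-like cells was not called with a mitochondrial limit of 10% (0.61), with sex as a term (0.61), without integration (0.62), from cluster 3 alone (0.64) or from replicates 2 and 3 alone (0.57), nor was Prdx4 in rod-like cells with sex as a term (0.93). The cause was not tested. In the fits with sex as a term, here and below, Ctrl 1 is the only control behind the group effect.

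Directions turned with sex as a term for Mt1 in Müller glia-like (−0.24) and rod-like cells (−0.89). They also turned in that fit for Mt2 in rod-like (−0.37) and Txnrd1 in Müller glia-like cells (−0.0058). Over fits without 1 sample, Mt1 turned in Müller glia-like cells (−0.024 to 0.58, turned without OIR 2). It also turned in rod-like cells (−0.24 to 1.2, turned without Ctrl 2 or Ctrl 3). Slc7a11 turned in Müller glia-like cells (−0.79 to 0.12, turned without Ctrl 1). Without integration Hmox1 turned in microglia-like cells (−0.45), where the cluster held 621 cells against 244 with integration. The unthinned share of Müller glia-like cells with Mt1 also turned (−2.38 percentage points).

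Members called, against 1 in rod-like, 1 in rod bipolar-like, 2 in Müller glia-like and 0 in other cells, were with no filter on low counts 4 in cone bipolar-like, 2 in cone-like, 1 in microglia-like, 5 in Müller glia-like and 3 in rod bipolar-like cells. With the replicate block they were 4, 2 and 2 in cone bipolar-like, cone-like and rod bipolar-like and 3 in rod-like cells. The block took no call away from a member named above. It also called Hmox1 in Müller glia-like cells (edgeR adjusted p = 0.0114), where same-numbered samples did not meet the pairing rule (r = 0.226, −0.0441 and 0.230). The share of all genes called in that fit is not given here. From replicates 2 and 3 alone the members called were 3 in cone bipolar-like, 2 in cone-like, 1 in Müller glia-like, 2 in rod bipolar-like and 5 in rod-like cells. Where no filter, the block or replicates 2 and 3 alone raised a count given here, more genes of all kinds were called too, as listed below. Such a higher count is therefore not a result about the members. DESeq2 gave 1 in cone bipolar-like, sex as a term 0 in rod-like, and the 10% limit, cluster 3 alone and clusters without integration 1 each in Müller glia-like cells, the last also 2 in rod-like cells. Leaving out 1 sample gave 0 to 3 in cone bipolar-like and in rod-like, 0 to 2 in cone-like and in Müller glia-like and 1 to 2 in rod bipolar-like cells, and 0 to 2, 0 to 1 and 0 to 1 for the difference from rod-like, rod bipolar-like and cone-like cells.

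Genes called were 302 in rod-like, 120 in cone-like, 230 in rod bipolar-like, 89 in cone bipolar-like, 2 in amacrine-like, 323 in Müller glia-like, 11 in microglia-like and 1 in RPE-like cells. With no filter they were 594, 311, 607, 423, 52, 696, 134 and 17 in that order. With the replicate block they were 1270, 396, 588 and 510 in the first 4 and 11 in RPE-like cells, and from replicates 2 and 3 alone 2522, 383, 651 and 332, 5 in amacrine-like, 20 in microglia-like and 11 in RPE-like cells. With sex as a term they were 34 in rod-like, 336 in cone bipolar-like, 0 in amacrine-like, 23 in microglia-like and 2 in RPE-like cells. DESeq2 called 666 in rod-like and 24 in microglia-like cells, clusters without integration gave 23 in microglia-like cells, at least 1000 UMIs gave 1 and doublet removal 0 in amacrine-like, the 10% limit 2 in RPE-like, and cluster 7 alone 148 in Müller glia-like cells. Leaving out 1 sample gave 41 to 995, 58 to 249, 79 to 350, 23 to 207, 0 to 26, 88 to 443, 3 to 43 and 0 to 7 in the order above. Replicates 2 and 3 alone and the single Müller clusters were chosen after seeing the data. In replicates 2 and 3 alone, group and sex cannot be told apart.

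Depth limits Hmox1, Nqo1 and Srxn1 outside their richest types, and amacrine-like, microglia-like and RPE-like cells, where few cells were summed. With 3 pools a group and sex unbalanced, every comparison is limited.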

Other observations

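Hmox1 in the unnamed cluster 13 stood at 1107, 777 and 178 CPM in OIR and 42.1, 3615 and 37.5 in controls, and few cells carried these values: 1 cell gave 277 of the 289 UMIs of Ctrl 2, 53 of 90 in OIR 2 and 16 of 29 in OIR 3, and 3 cells gave 157 of 285 in OIR 1.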
